A study of Homo sapiens with 6 samples.

Results

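The glutathione peroxidases are a family of 8 genes, GPX1 to GPX8, and all 8 were measured among the 14812 genes that the arrays named. Members were found by gene symbol. Where a gene had more than 1 probe set, its probe set was chosen by the mean log2 level across all 6 arrays, keeping the brightest. That choice mattered only for GPX6, which had 2 probe sets. It did not use the difference between the groups, but the family was picked with the higher value of GPX2 already known. The values of GPX2 are therefore a description and lend no support to the family.

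The cells were HuH7, an established human hepatoma line. In the EGOT gapmer group, 3 arrays held RNA from cells given an LNA gapmer against EGOT, a long noncoding RNA known to be induced by double-stranded RNA. The control gapmer group, also of 3 arrays, received an LNA gapmer meant as a control. Gapmers are short oligonucleotides that make RNase H cut an RNA they pair with. Both groups also received a carrier plasmid, 0.3 µg of a plasmid for PKR, a kinase that senses double-stranded RNA, and poly I:C, which mimics such RNA. Each well received 50 pmol of gapmer, and RNA was taken 36 hours after transfection. The design holds 1 gapmer per group and no cells without PKR and poly I:C. The question is which transcripts change on depletion of EGOT in cells so treated. The sequences given for the gapmers are shown because they are what separates the groups.
EGOT gapmer: agagacacttagaaga
control gapmer: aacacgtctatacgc

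Glutathione peroxidases reduce hydrogen peroxide and organic hydroperoxides with electrons from glutathione. In humans GPX1, GPX2, GPX3, GPX4 and GPX6 carry selenocysteine at the active site, an amino acid inserted at a recoded stop codon, whereas GPX5, GPX7 and GPX8 carry cysteine. GPX1 is the widespread enzyme of cytosol and mitochondria, and GPX2 is the form of the gut epithelium that is also made in liver cells. GPX2 is a known target of NRF2, the transcription factor that binds antioxidant response elements. GPX4 reduces lipid hydroperoxides within membranes and is the main brake on ferroptosis, the iron-dependent death by lipid peroxidation.

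The stretches before the transcription start of the 3 members that passed the test are shown so that their sequence can be set against the NRF2 element. They come from RefSeq (GRCh38.p14), read 5′ to 3′ on the gene's strand and end at the base before the annotated start. The GPX2 stretch is chr14:64942746-64942995 on the minus strand, that of GPX1 is chr3:49358354-49358603 on the minus strand, and that of GPX4 is chr19:1103744-1103993 on the plus strand, the first of 3 annotated starts. Capitals mark a match to the antioxidant response element.
GPX2: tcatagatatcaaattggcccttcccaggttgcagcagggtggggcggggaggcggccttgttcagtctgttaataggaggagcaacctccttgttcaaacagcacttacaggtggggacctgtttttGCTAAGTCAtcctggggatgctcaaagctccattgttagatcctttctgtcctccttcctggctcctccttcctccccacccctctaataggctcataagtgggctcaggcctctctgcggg
GPX1: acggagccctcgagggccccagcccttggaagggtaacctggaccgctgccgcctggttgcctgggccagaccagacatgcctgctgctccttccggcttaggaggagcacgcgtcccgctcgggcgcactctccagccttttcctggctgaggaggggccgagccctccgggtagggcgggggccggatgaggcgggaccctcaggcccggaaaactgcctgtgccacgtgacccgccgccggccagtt
GPX4: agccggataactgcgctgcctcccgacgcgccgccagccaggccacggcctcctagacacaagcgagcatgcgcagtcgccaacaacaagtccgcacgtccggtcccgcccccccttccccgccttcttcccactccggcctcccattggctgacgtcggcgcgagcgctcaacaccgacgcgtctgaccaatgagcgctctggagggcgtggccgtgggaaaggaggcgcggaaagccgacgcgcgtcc

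The antioxidant response element was searched as TGACNNNGC on both strands of the 250 bases before each start. GPX2 held a match on the strand opposite to the gene, TGACTTAGC, whose first base in the printed direction lies at position -122, counting the base before the start as -1. It was the 1 member of 8 with a match, over 12 annotated starts. Of 35097 RefSeq promoters of this length, 10.9% held a match. The TATA box, searched as TATAAA, was matched in 1 member, GPX5, and in 10.7% of all promoters. GC made up 54.0% of the GPX2 stretch, 70.8% of that of GPX1 and 69.6% of that of GPX4, against a median of 58.0% over all promoters. A match describes the letters in this window and shows no binding.

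The arrays and labels were first checked on EGOT itself. EGOT read 4.91, 4.90 and 4.69 on the log2 scale in EGOT gapmer replicates 1 to 3, against 6.29, 6.79 and 6.71 in control gapmer replicates 1 to 3, and it fell by 1.76 (limma adjusted p = 0.0076). It lay below the array median on all 3 EGOT gapmer arrays, where background compresses differences, so this size may be too small. Array medians lay between 5.08 and 5.23 in the EGOT gapmer arrays and between 5.12 and 5.15 in the control gapmer arrays, with the highest in EGOT gapmer replicate 2, which also stood apart from the other EGOT gapmer arrays on the first 2 principal components. Of 12 hepatocyte and hepatoma markers, 9 were measured, albumin and alpha-fetoprotein among them, and all 9 were above the array median on all 6 arrays. Of these, 1 (11.1%) rose and 0 fell, against 5.2% and 3.21% of all genes. The apolipoprotein gene APOA1 was the one that rose, by 0.36 (limma adjusted p = 0.0406). Its call was lost without any 1 of the 6 arrays (limma adjusted p from 0.0645 to 0.140). Over all probe sets, pairs of arrays correlated at 0.987 to 0.989 in the EGOT gapmer group, 0.991 to 0.992 in the control gapmer group and 0.985 to 0.988 across groups. Whether the replicates of a group were separate cultures is not said in the labels, and the p-values then reflect a spread between arrays that may be only technical.

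Of the 8 glutathione peroxidase genes, 3 rose with the EGOT gapmer and 0 fell (limma, adjusted p under 0.05 over all genes). They were GPX2, GPX1 and GPX4. Over all 14812 genes 5.2% rose and 3.21% fell, 8.41% in either direction. Leaving out GPX2, the count was 2 of 7. All 3 EGOT gapmer arrays lay above all 3 control gapmer arrays in 5 members, GPX1, GPX2, GPX4, GPX7 and GPX8. Without GPX2 this was 4 of 7, against 20.2% of all genes. In 0 members did they all lie below, against 11.5% of all genes, or 31.7% apart in either direction. The family's median log2 difference was 0.30, or 0.18 without GPX2, against 0.04 over all genes. By active site, 2 of the 4 selenocysteine members other than GPX2 rose, with a median difference of 0.30. Of the 3 cysteine members 0 rose, with a median of 0.15. Among these, GPX8 had an unadjusted limma p under 0.05 and a difference of 0.57, larger than those of GPX1 and GPX4. The groups lay apart in 2 of those 4 selenocysteine members and in 2 of the 3 cysteine members. No test was made of one member's difference against another's. RNA of a whole culture was measured, so more transcript per cell and more cells that carry it cannot be told apart.

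GPX2 had the largest difference of the family. It read 6.55, 6.79 and 6.49 in EGOT gapmer replicates 1 to 3, against 6.05, 5.45 and 5.60 in control gapmer replicates 1 to 3. The groups did not overlap, and their nearest arrays were 0.44 apart, although control gapmer replicate 1 lay well above the other control arrays. The mean log2 value was 6.61 ± 0.157 with the EGOT gapmer and 5.70 ± 0.313 with the control gapmer (SD, n = 3 each). The log2 difference of 0.91 (standard error 0.163) is 1.88-fold, with a 95% confidence interval from 1.44-fold to 2.45-fold (limma adjusted p = 0.0247). It was the 10th largest rise among the 14812 genes. Leaving out EGOT gapmer replicate 1, 2 or 3, or control gapmer replicate 2 or 3, ended the call, with differences of 0.79 to 0.97 and limma adjusted p between 0.0581 and 0.0910. Without control gapmer replicate 1 the call held at 1.09.

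GPX1, the enzyme that clears hydrogen peroxide in cytosol and mitochondria, rose with the smallest p of the family. Its log2 values were 8.10, 8.27 and 8.16 in EGOT gapmer replicates 1 to 3 and 7.70, 7.63 and 7.56 in control gapmer replicates 1 to 3. The arrays of each group lay close together, with ranges of 0.17 and 0.14, and the gap between the groups was 0.40. Means were 8.17 ± 0.0854 with the EGOT gapmer and 7.63 ± 0.0710 with the control gapmer (SD, n = 3 each). The log2 difference of 0.54 had a standard error of 0.0786, or 1.46-fold with a 95% confidence interval from 1.28-fold to 1.66-fold (limma adjusted p = 0.0154). The call was lost without EGOT gapmer replicate 3 or without any 1 of the control gapmer arrays, with differences of 0.51 to 0.58 and limma adjusted p between 0.0549 and 0.0744. It held without EGOT gapmer replicate 1 or 2.

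GPX4, the membrane lipid hydroperoxidase, also rose. It read 9.77, 9.84 and 9.90 in EGOT gapmer replicates 1 to 3, against 9.49, 9.36 and 9.37 in control gapmer replicates 1 to 3, and the groups lay 0.29 apart. The means of 9.84 ± 0.0651 with the EGOT gapmer and 9.41 ± 0.0708 with the control gapmer (SD, n = 3 each) differed by 0.43 on the log2 scale, with a standard error of 0.0748. This is 1.35-fold, with a 95% confidence interval from 1.20-fold to 1.53-fold (limma adjusted p = 0.0226). With 1 array left out, the call held without EGOT gapmer replicate 1 (limma adjusted p = 0.0429) and was lost without each of the other 5, with limma adjusted p between 0.0528 and 0.0949. It was also lost, at a difference of 0.36 (limma adjusted p = 0.0511), once the trend of differences on the genomic length of genes was removed.

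GPX8 and GPX7 act in the endoplasmic reticulum, where they use hydrogen peroxide in oxidative protein folding. GPX8 read 6.28, 5.94 and 6.52 in EGOT gapmer replicates 1 to 3, against 5.77, 5.58 and 5.67 in control gapmer replicates 1 to 3. The groups lay 0.17 apart, and the EGOT gapmer arrays spread over 0.57, with replicate 2 the lowest. The log2 difference of 0.57 (standard error 0.145, 95% confidence interval 0.23 to 0.91) did not pass (limma adjusted p = 0.0555). It passed without EGOT gapmer replicate 2, at 0.73 (limma adjusted p = 0.0399), and with a variance trend and robust estimation in the model (limma adjusted p = 0.0128). It also passed with the trend alone (limma adjusted p = 0.0134), and did not with robust estimation alone (limma adjusted p = 0.0595). GPX7 ran from 8.16 to 8.25 in the EGOT gapmer arrays and from 7.997 to 8.10 in the control gapmer arrays. Its groups did not overlap, but the log2 difference of 0.15 had a 95% confidence interval from -0.01 to 0.32 and did not pass (limma adjusted p = 0.221).

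GPX3 is the secreted form of plasma. Its log2 values were 6.60, 6.83 and 6.92 in EGOT gapmer replicates 1 to 3 and 6.69, 6.54 and 6.60 in control gapmer replicates 1 to 3. EGOT gapmer replicate 1 lay among the control gapmer arrays, and the difference of 0.18 (95% confidence interval -0.06 to 0.41) did not pass (limma adjusted p = 0.328). The data thus leave room for a rise of up to 1.33-fold in GPX3.

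GPX5, known from the epididymis, and GPX6, known from the olfactory epithelium, neighbour each other on chromosome 6. GPX5 lay between 4.28 and 4.94 in the EGOT gapmer arrays and between 4.39 and 4.76 in the control gapmer arrays, below the array median on all 6 arrays. GPX6 lay between 4.85 and 5.19 in the EGOT gapmer arrays and between 4.86 and 5.27 in the control gapmer arrays, above the array median on 3 of 6. At such low signal background compresses differences, and neither gene passed. The log2 difference was -0.07 for GPX5 (95% confidence interval -0.50 to 0.36, limma adjusted p = 0.859) and -0.0019 for GPX6 (95% confidence interval -0.32 to 0.31, limma adjusted p = 0.995). The probe set of GPX6 that was not used read 2.34 to 2.41 in the EGOT gapmer arrays and 2.21 to 2.57 in the control gapmer arrays, with a difference of -0.02.

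**Figure D1:**
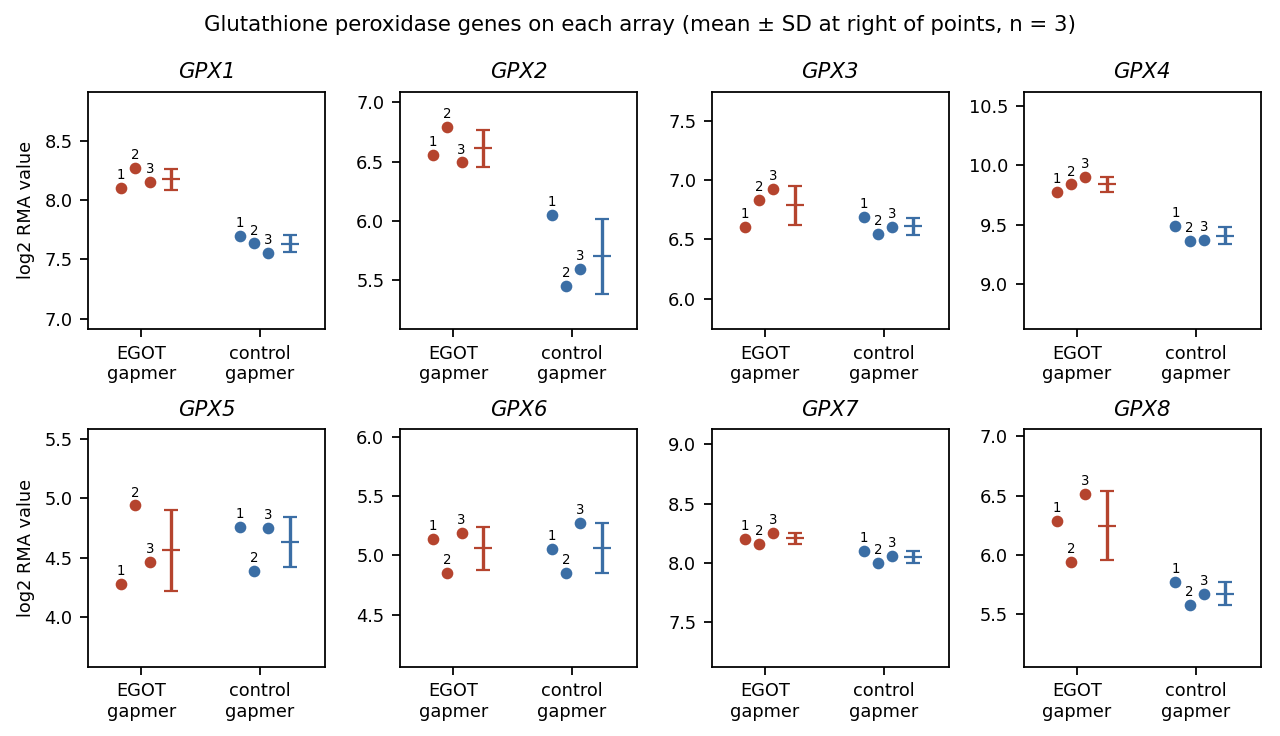
Log2 RMA values of the 8 glutathione peroxidase genes on each array, with EGOT gapmer arrays at the left of each panel and control gapmer arrays at the right; points carry the replicate number, and bars give the mean ± SD (n = 3). Every panel spans the same number of log2 units, and the points of the groups are apart in GPX1, GPX2, GPX4, GPX7 and GPX8.

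**Figure D2:**
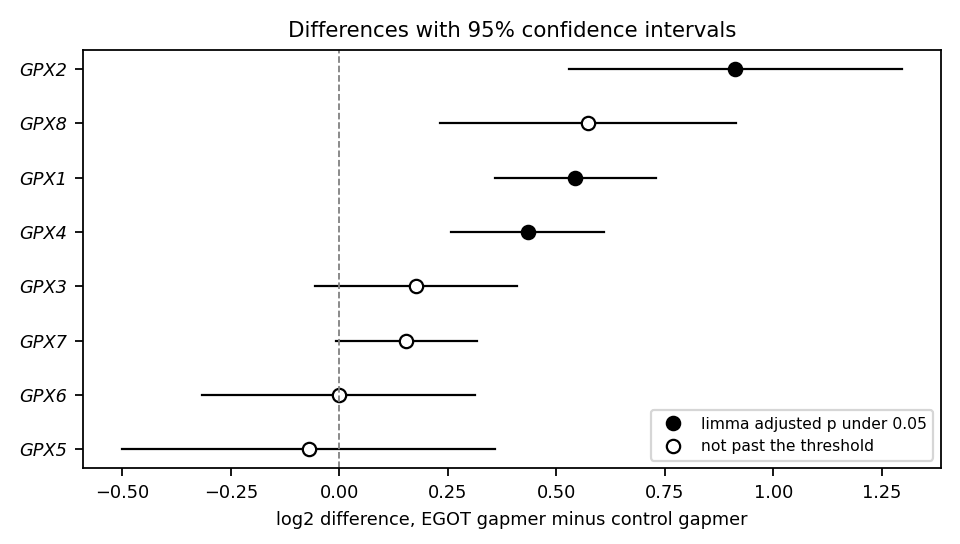
Log2 difference, EGOT gapmer minus control gapmer, of each member with its 95% confidence interval from limma. Filled points are GPX2, GPX1 and GPX4, which passed the threshold, and the interval of GPX8, from 0.23 to 0.91, lies above 0 although its adjusted p of 0.0555 did not pass.

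Selenoproteins other than the peroxidases were examined next, since they share the supply of selenocysteine. Of 20 listed, 14 were measured, 0 passed in either direction (limma; 4 had an unadjusted p under 0.05, against 3708 of all 14812 genes) and the median difference was 0.05. The nearest to the threshold were SELENOS, of endoplasmic reticulum protein degradation, with a log2 difference of 0.25 (limma adjusted p = 0.119), SELENOH at 0.21, the methionine sulfoxide reductase gene MSRB1 at 0.21 and SELENOI at -0.16. The thioredoxin reductase gene TXNRD1 had a log2 difference of 0.02, and those of TXNRD2 and TXNRD3 were 0.05 and 0.09. Of 12 genes that handle selenium or insert selenocysteine, 10 were measured and 0 passed (4 at an unadjusted p under 0.05), with a median of 0.08. Among them were SARS1, the seryl-tRNA synthetase that charges the selenocysteine tRNA, at 0.31 (limma adjusted p = 0.0557), SEPHS1 at 0.29 (limma adjusted p = 0.0881), the selenocysteine lyase gene SCLY at -0.19 and SEPSECS, the enzyme that completes selenocysteine on its tRNA, at -0.19.

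Glutathione supply was represented by 12 measured genes of 21, of which 1 (8.33%) rose and 0 fell, against 5.2% and 3.21% of all genes, with a median of 0.08. GSS, which encodes glutathione synthetase, read 9.22, 9.26 and 9.26 in EGOT gapmer replicates 1 to 3, against 8.96, 8.89 and 8.94 in control gapmer replicates 1 to 3. It rose by 0.31 on the log2 scale (standard error 0.0652, limma adjusted p = 0.0334), and the call was lost without any 1 of the 6 arrays (limma adjusted p from 0.0665 to 0.126). GSR, the reductase that returns oxidised glutathione to the form the peroxidases use, had a difference of 0.03. PGD, a source of NADPH, had one of 0.22 (limma adjusted p = 0.0766), and GGT6, of the gamma-glutamyltransferase family, one of -0.34 (limma adjusted p = 0.0624). The aminopeptidase gene ANPEP stood at 0.16. GCLC, GCLM and SLC7A11, which set the rate of glutathione synthesis, were not analysed here.

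Among other enzymes that act on peroxides and superoxide or use glutathione, 18 of 22 were measured, 4 (22.2%) rose and 0 fell, against 5.2% and 3.21% of all genes. A difference above 0 was found in 16 (88.9%), against 57.8% of all genes, and the median was 0.18. GSTA2, a glutathione transferase with peroxidase activity, read 6.06, 5.94 and 5.50 in EGOT gapmer replicates 1 to 3, against 5.00, 5.13 and 5.27 in control gapmer replicates 1 to 3, a difference of 0.70 (limma adjusted p = 0.0387). GSTA1, a near-identical copy that its probes may share in part, had a difference of 0.04, so the assignment to GSTA2 is uncertain. GLRX, glutaredoxin, rose by 0.49 (limma adjusted p = 0.0271), and the peroxiredoxin genes PRDX1 and PRDX6 by 0.46 (limma adjusted p = 0.0306) and 0.32 (limma adjusted p = 0.0319). GLRX was above the array median on 4 of 6 arrays and GSTA2 on 5 of 6, so background may distort the size of their differences. PRDX6 is the peroxiredoxin that draws on glutathione. With 1 array left out, PRDX1 and PRDX6 never passed (limma adjusted p from 0.0581 to 0.118), GLRX passed only without EGOT gapmer replicate 1 (limma adjusted p = 0.0425), and GSTA2 only without EGOT gapmer replicate 3 (limma adjusted p = 0.0362). Catalase, CAT, had a difference of 0.11. The superoxide dismutase genes SOD1, SOD2 and SOD3, and the peroxiredoxin gene PRDX5, were not analysed here.

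Around GPX4, 10 of 20 genes tied to ferroptosis were measured and 0 passed by limma, with a median of 0.09. An unadjusted limma p under 0.05 was found in 3 of the 10, against 3708 of all 14812 genes. ACSL4, which supplies the membrane lipids that peroxidise, had a difference of -0.01. GCH1, which makes the antioxidant cofactor tetrahydrobiopterin, had one of 0.32 (limma adjusted p = 0.0695), CISD1 0.21, the lipid remodelling gene LPCAT3 0.19 and DHODH, a mitochondrial partner of GPX4 in limiting lipid peroxidation, 0.08. Around GPX7 and GPX8, 6 of 14 genes of oxidative folding were measured, with a median of -0.01. Among them 0 rose and 2 (33.3%) fell, against 5.2% and 3.21% of all genes. Those that fell were the sulfhydryl oxidase genes QSOX1, by 0.55 (limma adjusted p = 0.0233), and QSOX2, by 0.45 (limma adjusted p = 0.0293). QSOX1 read 6.31, 6.62 and 6.55 in EGOT gapmer replicates 1 to 3, against 7.08, 6.98 and 7.07 in control gapmer replicates 1 to 3. QSOX2 was not called without any 1 of the 6 arrays (limma adjusted p from 0.0525 to 0.110), and QSOX1 was called only without EGOT gapmer replicate 1 or 2 (limma adjusted p = 0.0415 and 0.0421). PRDX4 had a difference of 0.18 and ERO1A of 0.08. The protein disulfide isomerase genes P4HB, PDIA3, PDIA4, PDIA5 and PDIA6, and also TXNDC5 and HSPA5, were not analysed here.

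Over these 6 lists, 67 of 106 genes were measured, 5 (7.46%) rose and 2 (2.99%) fell, close to the 5.2% and 3.21% of all genes. Once the trend on genomic length was removed, 0 rose and 2 fell, while over all 14812 genes 262 rose and 262 fell. GSS, PRDX1, PRDX6, GLRX and GSTA2 then no longer passed. GPX1 and GPX2 still passed, at differences of 0.48 and 0.83, and GPX4 did not, at 0.36 (limma adjusted p = 0.0511).

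**Figure D3:**
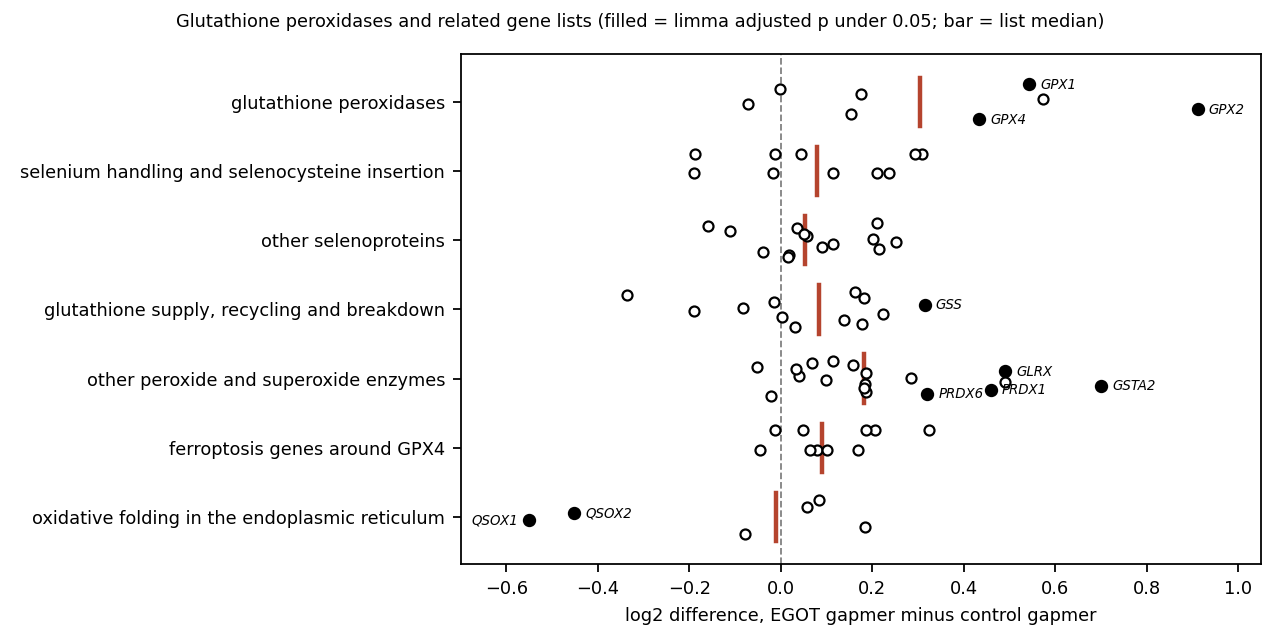
Log2 difference, EGOT gapmer minus control gapmer, of each measured gene, with the glutathione peroxidases in the top row and the 6 related lists below; filled points passed the threshold and carry their symbol, and the bar is the list's median. The median of the peroxidases was 0.30, or 0.18 without GPX2, against 0.18 for the other peroxide and superoxide enzymes and -0.01 for oxidative folding. No superoxide dismutase gene was among those measured.

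Markers of other cell types gave the following values beside these rises. Of 8 leukocyte markers 4 were measured, and their mean lay between 7.34 and 7.49 in the EGOT gapmer arrays and between 6.90 and 6.99 in the control gapmer arrays. CD68, a lysosomal glycoprotein gene, rose by 1.06 (limma adjusted p = 0.00807) and LYZ, the lysozyme gene, by 0.57 (limma adjusted p = 0.0171). With the probe sets of LYZ averaged, its difference was 1.13. CD2, of T cells, and CD14, of monocytes, did not pass. CD2 stood at 0.34 (limma adjusted p = 0.229) and CD14 at -0.06 (limma adjusted p = 0.736). CD68 no longer passed without control gapmer replicate 2 (limma adjusted p = 0.0562), and LYZ without any 1 of the control gapmer arrays (limma adjusted p from 0.0607 to 0.0804). PTPRC, which defines leukocytes, was not analysed here. Of 6 markers of intestinal epithelium, the main site of GPX2, 4 were measured, and their mean lay between 7.36 and 7.47 in the EGOT gapmer arrays and between 7.31 and 7.41 in the control gapmer arrays. VIL1, an actin-bundling protein of microvilli, rose by 0.30 (limma adjusted p = 0.0362), though it did not pass without any 1 of the 6 arrays (limma adjusted p from 0.0680 to 0.133), and CDX2 had a difference of -0.11. The 2 measured fibroblast markers of 6 and the 2 measured endothelial markers of 5 were below the array median on all 6 arrays. The part of the leukocyte and intestinal markers in the rises of GPX1, GPX2 and GPX4 was not tested.

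The genes whose 6 log2 values followed those of GPX2 most closely were sought among 6841 protein-coding genes with a mean above the median. They were HSPD1, a mitochondrial chaperonin, SMU1, of the spliceosome, PEBP1, an inhibitor of RAF kinase, RFXANK, a subunit of an MHC class II transcription factor, and NKAPD1, with Pearson correlations from 0.993 to 0.995 over 6 arrays. PEBP1 rose by 0.46 (limma adjusted p = 0.0293), a call lost without any 1 of the 6 arrays (limma adjusted p from 0.0639 to 0.112). The other 4 did not pass, at 0.20 to 0.32. The 6 arrays share the split between the groups, and 186 of the 6841 genes had a correlation over 0.95.

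**Figure D4:**
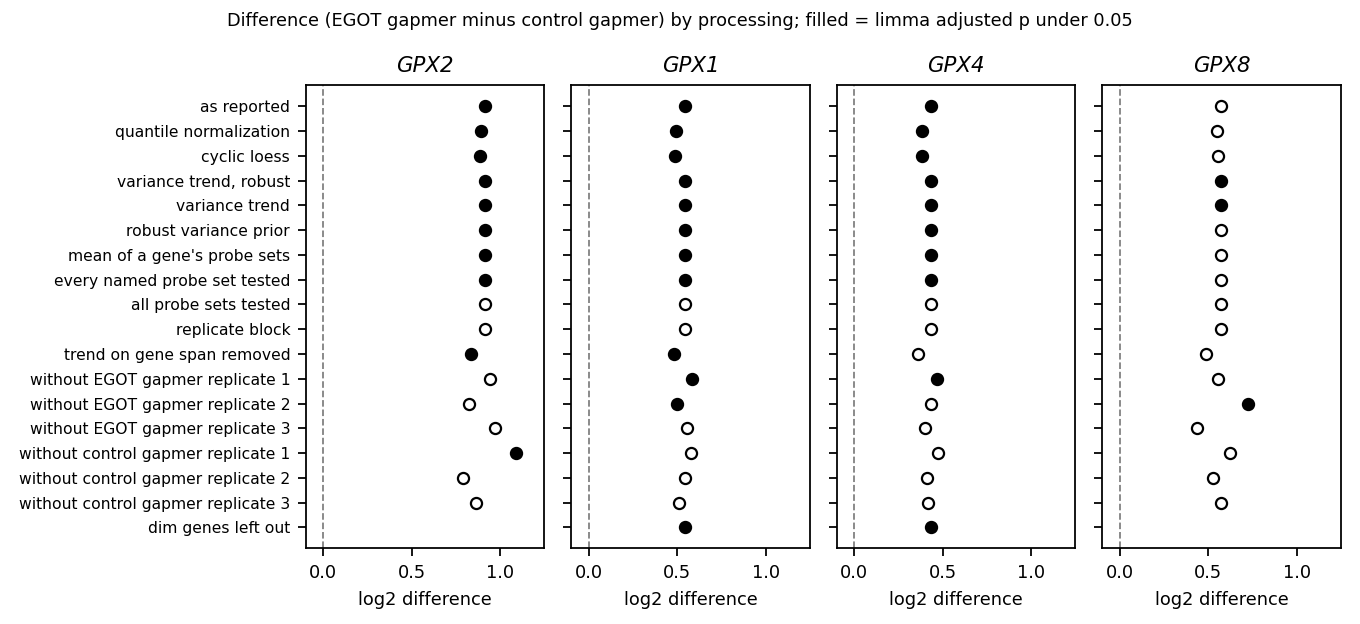
Log2 difference, EGOT gapmer minus control gapmer, of GPX2, GPX1, GPX4 and GPX8 as reported and under each other processing; filled points have a limma adjusted p under 0.05. All differences shown are above 0, while the call changes with the processing; GPX2 and GPX8 have no point where dim genes were left out.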

How the data were processed

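The authors deposited log2 expression values for 44629 probe sets on each of 6 arrays, made with RMA per the submitters' processing notes; its version is not given in the sources used. RMA corrects background, gives the probe values of the arrays a shared distribution and then summarises probes, so a change in total RNA per cell would not be seen. The medians of the deposited probe set values still ran from 5.08 to 5.23. Gene names came from GEO's platform annotation, which names no array product and was joined by probe ID (15835 with 1 symbol, 14812 genes, all matched in RefSeq GRCh38.p14). Groups were compared with limma 3.58.1 in R 4.3.3 (lmFit and eBayes, two-sided, Benjamini-Hochberg over all genes, threshold 0.05), and the fit was tested on simulated data. The number of arrays limits the precision, and an exact permutation test of 3 arrays against 3 cannot go below p = 0.1. The members, gene lists and tests were chosen with earlier results of these data known. Named genes are EGOT, all members, the 4 genes of each pathway list with the smallest p and any other past the threshold, and the 5 genes most like GPX2. Further genes (TXNRD1, TXNRD2, TXNRD3, GSR, GSTA1, CAT, ACSL4, APOA1 and other markers) were named after their values were seen. The alternatives were other normalizations, filters, probe set choices, a variance trend with robust estimation (and, added after seeing the data, each alone), a trend on genomic length, a replicate block and each array left out.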

Additional observations from a re-analysis of the deposited data

How the results depend on the processing

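The differences of GPX1, GPX2, GPX3, GPX4, GPX7 and GPX8 were above 0 under all alternatives in which they could be computed, and GPX2 ranged from 0.79 to 1.09. With 1 array left out, GPX5 ranged from -0.260 to 0.0699 and GPX6 from -0.105 to 0.103, never past the threshold; the sign turned without EGOT gapmer replicate 1 for GPX5, and without EGOT gapmer replicate 2 or control gapmer replicate 3 for GPX6. With all 44629 probe sets tested, GPX2 (0.91, limma adjusted p = 0.0720), GPX1 and GPX4 no longer passed, 0 of 8 members and 0 pathway list genes passed, and 67 genes did in all (4 members and 17 pathway list genes at an unadjusted p under 0.05). Arrays with the same replicate number showed no shared deviation (correlations of deviations -0.03, -0.05 and 0.04). With 3 arrays per group, this cannot settle whether the numbers pair the arrays. With a replicate block, EGOT (-1.76, limma adjusted p = 0.0543) and GPX2 (0.91, limma adjusted p = 0.0723) did not pass, and 0 of 8 members, 0 pathway list genes and 0 genes in all did by limma, against 4, 19 and 3438 at an unadjusted p under 0.05. With dim genes left out, 7406 genes and 4 members were tested. Of these members 2 passed, as did 17 pathway list genes and 2547 genes in all (34.4%). With a variance trend and robust estimation over all 14812 genes, 17 pathway list genes and 2502 genes in all (16.9%) passed, against 8.41% as reported. Added after seeing the data, the trend alone gave 18 and 2513, and robust estimation alone 7 and 1178, against 7 and 1245 as reported. With the trend on genomic length removed, 2 pathway list genes and 524 genes passed. With 1 array left out, the members past the threshold numbered 0 to 2, the pathway list genes 0 to 2 and all genes 9 to 579, with GPX2 between 0.79 and 1.09. The causes were not tested. Calls higher with the EGOT gapmer were 61.8% as deposited, 50.2% after quantile normalization and 48.8% after cyclic loess. The median difference of all genes went from 0.0372 as deposited to 0.00375 and 0.00252, and the same 3 members passed under both. The other 43 named genes kept their direction in 711 of 724 alternatives. None of the 12 that passed as reported turned. TXNRD1 turned to -0.0295 and GSR to -0.00388 after quantile normalization, and to -0.0390 and -0.0152 after cyclic loess. Without the trend on genomic length, GSTA1 turned to -0.0476 and ACSL4 to 0.0182. With 1 array left out, the range crossed 0 for TXNRD1 (-0.00483 to 0.0412), TXNRD2 (-0.0309 to 0.132), GSTA1 (-0.109 to 0.145), ACSL4 (-0.0631 to 0.0224) and CDX2 (-0.239 to 0.0370). Dim signal limits GPX5 and GPX6. GPX2 and GPX8 lay above the array median on all 6 arrays. In mean level, however, only 49.91% of genes lay below GPX2 and 46.63% below GPX8, so both were left out with the dim genes.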

Other observations

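Within the control gapmer group, replicate 1 gave the highest value in 7 of the 8 glutathione peroxidase genes and replicate 2 the lowest in 7 of 8. Over all 14812 genes, replicate 1 was the highest control gapmer array in 33.4% and replicate 2 the lowest in 31.3%. Within the EGOT gapmer group, replicate 3 was the highest in 5 of the 8 genes, and replicate 2 in 3 of 8, whereas over all genes replicate 3 was the highest EGOT gapmer array in 26.2% and replicate 2 in 52.2%. This order was noticed in the values and was not tested.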
